A study of Homo sapiens with 6 samples.

Results

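The genes described here encode proteins of heme synthesis: ALAS1, ALAS2, ALAD, UROS, UROD, CPOX, PPOX, FECH and ABCB10. They were picked out by name, with earlier results of these data known, and are taken in the order of the pathway with the transporter ABCB10 last. Each of the 9 names matched 1 row of the deposited tables, out of 62754 gene rows in all. The list does not cover every step of the pathway.

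The source was HUDEP-2, an immortalised human line of erythroid progenitors, from which poly(A) RNA went into strand-specific libraries. All cells grew with 3 units/ml erythropoietin, 50 ng/ml stem cell factor, dexamethasone at 1e-06 M and 1 µg/ml doxycycline, and all received a lentiviral shRNA followed by 2 µg/ml puromycin, which was added at 24 h for 48 h. One group of 3 libraries carried a hairpin against MEN1 (MEN1sh2, genotype given as MEN1 knockdown) and the other group of 3 the control hairpin (Controlsh, genotype given as WT). The labels call the libraries of a group biological replicates. Cells were analysed at 72 h. MEN1 encodes menin, a subunit of the MLL1 histone methyltransferase complex, a complex the series studies for its part in fetal hemoglobin repression. A single MEN1 hairpin was used in a single line, so menin loss and an off-target effect of the hairpin cannot be told apart.

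Heme is an iron-containing porphyrin that binds oxygen in hemoglobin, and erythroid precursors make most of the body's supply while globin chains accumulate. Synthesis begins in the mitochondrion, where an ALA synthase joins glycine and succinyl-CoA, passes through the cytosol for the building and trimming of the porphyrin ring, and returns to the mitochondrion for the oxidations and for the insertion of iron. ALA synthase exists as the housekeeping enzyme ALAS1 and the erythroid enzyme ALAS2, and it is the main point of control.

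The start regions of 3 members are shown because the first step has a housekeeping and an erythroid gene, and because CPOX had the highest fold change of the members. Sequences are the 250 bases before the RefSeq start on GRCh38.p14, written 5′ to 3′ on the strand of the gene. Capitals mark matches on either strand to AGATAA or TGATAA, a core bound by GATA factors, or to TGAGTCA, a core bound by NF-E2 and AP-1 factors. ALAS2 is shown for chrX:55030978-55031227 (minus strand), ALAS1 for chr3:52197833-52198082 (plus strand) and CPOX for chr3:98593612-98593861 (minus strand).
ALAS2: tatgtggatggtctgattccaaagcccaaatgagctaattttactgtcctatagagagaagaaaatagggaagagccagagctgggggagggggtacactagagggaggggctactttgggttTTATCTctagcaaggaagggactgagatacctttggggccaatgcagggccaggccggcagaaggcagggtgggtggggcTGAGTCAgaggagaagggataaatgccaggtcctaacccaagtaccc
ALAS1: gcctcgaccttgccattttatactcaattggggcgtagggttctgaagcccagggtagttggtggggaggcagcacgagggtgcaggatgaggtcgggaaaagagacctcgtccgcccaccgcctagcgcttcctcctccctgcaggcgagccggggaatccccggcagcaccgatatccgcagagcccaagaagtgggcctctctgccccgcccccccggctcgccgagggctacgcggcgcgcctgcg
CPOX: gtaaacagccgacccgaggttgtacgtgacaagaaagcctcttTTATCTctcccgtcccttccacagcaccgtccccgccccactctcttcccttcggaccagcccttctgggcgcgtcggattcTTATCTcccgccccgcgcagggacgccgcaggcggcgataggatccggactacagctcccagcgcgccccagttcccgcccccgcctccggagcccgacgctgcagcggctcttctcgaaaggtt

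ALAS2 held a GATA-type match whose first base lies 127 bases before the start, and a TGAGTCA match 47 bases before it. CPOX held GATA-type matches 207 and 125 bases before the start. The ALAS1 window before the start held neither motif. A match to the palindromic core bound by the housekeeping factor NRF1 spans the ALAS1 start, and another begins at base 22 of the transcript. Shorter pieces around such matches are given next, with the match in capitals: the NRF1-type matches of ALAS1 (chr3:52198065-52198092 and chr3:52198095-52198122, plus strand), a GATA-type match 63 bases before the downstream RefSeq start of PPOX (chr1:161166574-161166597, plus strand), and the CAGTGN loop of the iron-responsive element at base 21 of the ALAS2 transcript (chrX:55030942-55030967, minus strand), which iron regulatory proteins bind to hold back translation.
ALAS1 at the start: ctacgcggcGCGCCTGCGCagaagaagg
ALAS1 after the start: gcgcccaagGCGCATGCGCagcggtcac
PPOX: gtgtggcccTTATCTgcacccagc
ALAS2 transcript: cgttcgtcctCAGTGCagggcaacag

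RefSeq windows of 300 bases, from 250 before to 50 after a start, were found for 8 members, with 10 windows among them. UROS had no entry. A GATA-type match was present in 3 of the 10 member windows (1 each of ALAS2, CPOX and PPOX) and in 16.3% of all 35116 windows. TGAGTCA was present in 1 of the 10 member windows and in 4.95% of all windows, and the NRF1 core in 1 and 5.78%. CCACACCC, a core bound by KLF1, was present in 1 member window (PPOX) and in 3.28% of all windows. The letters describe the sequence and were not tested for binding.

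MEN1 was checked first. Its level was 6.29, 6.44 and 6.88 TPM (transcript abundance as a share of the library, corrected for length) in MEN1 shRNA replicates 1, 2 and 3, against 41.2, 39.6 and 37.1 TPM in the controls. The mean was 16.6% of control, in the direction the labels give. Depth inferred from the tables was 18400000 to 35800000 read pairs per library. All 7 erythroid markers examined were present, with HBB at 27314 TPM or more, and 5 markers of other blood cells (CD3E, CD14, MPO, PF4 and CPA3) reached at most 0.835 TPM in any library, PF4 being listed at 0 in all 6. The liver genes ALB and APOA1 reached at most 0.107 TPM. The labels name no batch.

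All 9 heme synthesis genes were higher with the MEN1 shRNA, and in each of them the 3 MEN1 shRNA libraries lay above the 3 control libraries. Log2 fold changes ran from 0.28 for ALAD to 1.33 for CPOX, with a median of 0.99, against a median of -0.07 over the 14294 genes tested. All 9 passed an adjusted p of 0.05 in limma, a linear model fitted to log2(TPM + 1) of all tested genes with Benjamini-Hochberg adjustment. Of all genes tested, 53.6% passed, 22.1% as higher and 31.5% as lower. That split depends on scaling. Rises were 41.2% of the called genes here, 49.5% with median-of-ratios scaling and 49.1% with quantile normalization. The groups did not overlap, with the MEN1 shRNA higher, in 25.8% of all genes, and in either direction in 61.8%. A change of at least 2-fold was reached by 4 members (ALAS1, ALAS2, UROD and CPOX), and by 4.96% of genes as called rises. In bulk RNA, a change in the share of cells of a given stage and a change in RNA per cell cannot be told apart.

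**Figure D1:**
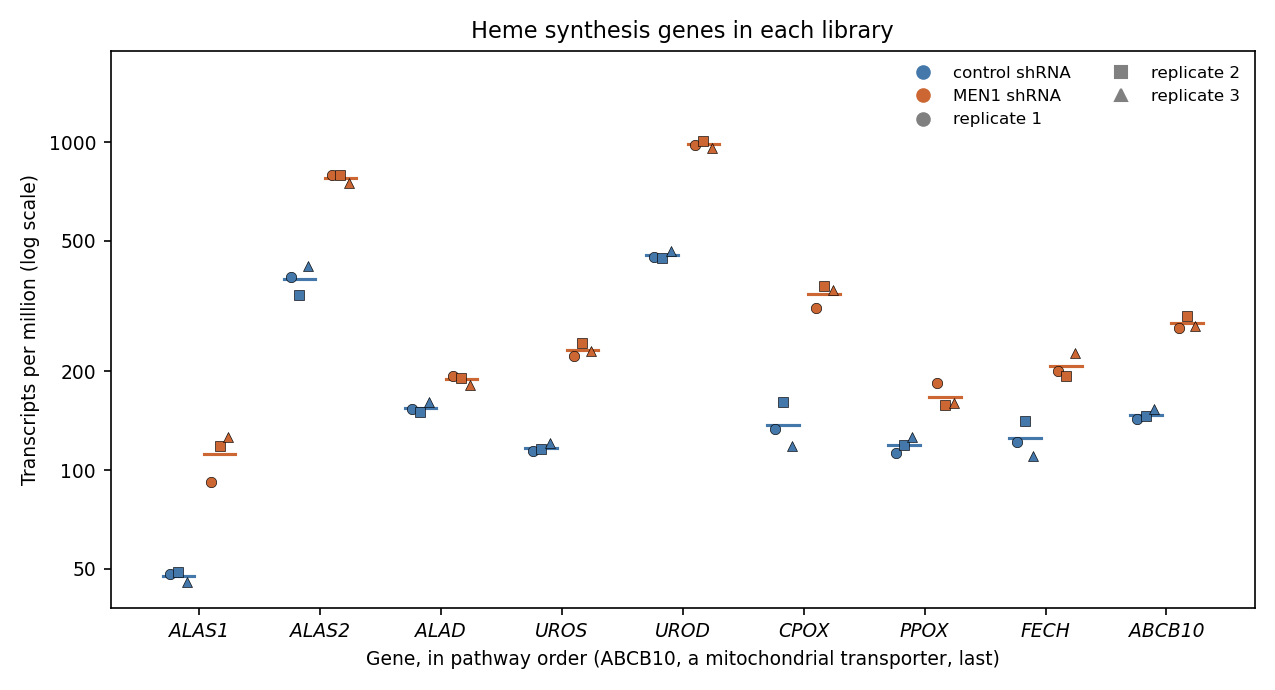
Level of each heme synthesis gene in each library, in TPM on a log axis, with genes in pathway order; points are libraries (shape gives the replicate number) and bars are group means. In each gene the 3 MEN1 shRNA points lie above the 3 control points, closest together in ALAD (182 to 193 against 150 to 161 TPM).

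ALA synthase, the first step, was higher for both genes. ALAS2 (ENSG00000158578, chromosome X, 55009055 to 55030977, minus strand) was at 795, 795 and 751 TPM under MEN1sh2 against 387, 342 and 420 TPM under Controlsh. The MEN1 shRNA libraries were close together and all above the controls, whose spread was wider. The means were 780 ± 25.3 and 383 ± 39.0 TPM (SD, n = 3 each), with a log2 fold change of 1.03 (SE 0.0797, adjusted p 6.1e-05 in limma). ALAS2 ranked 152nd by mean TPM among the tested genes with the MEN1 shRNA and 311th in the controls.

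ALAS1 (ENSG00000023330, chromosome 3, 52198086 to 52214327, plus strand), the housekeeping synthase, was at 92.2, 118 and 126 TPM against 48.3, 48.8 and 45.4 TPM. Replicate 1 was the lowest of the MEN1 shRNA libraries and still well above every control. The means were 112 ± 17.6 and 47.5 ± 1.86 TPM, with a log2 fold change of 1.21 (SE 0.114, adjusted p 0.000123 in limma). It was 1.12 to 1.34 when single libraries were omitted. The 95% intervals of ALAS1 (0.94 to 1.47) and ALAS2 (0.84 to 1.21) overlapped.

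The balance between both synthases was compared directly. ALAS2 supplied 89.6%, 87.1% and 85.6% of the summed ALAS1 and ALAS2 TPM under MEN1sh2, against 88.9%, 87.5% and 90.2% under Controlsh. These ranges overlapped. Mean shares of 87.4% ± 2.00 and 88.9% ± 1.37 (SD, n = 3) differed by -1.44 percentage points, for which the exact permutation test (2-sided) gave p = 0.4, where 0.1 is the lowest value possible with 3 libraries a group. Omitting single libraries moved the difference between -2.52 and -0.55 percentage points.

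The cytosolic enzymes differed in the size of their change. ALAD (ENSG00000148218, chromosome 9, 113386312 to 113401290, minus strand), which joins molecules of ALA into porphobilinogen and is the target of lead poisoning, was at 193, 191 and 182 TPM against 154, 150 and 161 TPM. Both groups were tight and their nearest libraries were 182 and 161 TPM. The means were 189 ± 5.59 and 155 ± 5.50 TPM, with a log2 fold change of 0.28 (SE 0.0543, adjusted p 0.00339 in limma) and a 95% interval of 0.16 to 0.41. That was the lowest fold change of the 9, with 74.6% of all tested genes having a lower one. Under a test against a log2 fold change of 0.5 (limma's treat), ALAD did not pass (adjusted p 1). Its estimate lies below 0.5, so this outcome was fixed.

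UROS (ENSG00000188690, chromosome 10, 125784980 to 125823258, minus strand), which closes the ring to uroporphyrinogen III, was at 223, 244 and 231 TPM against 114, 116 and 121 TPM. The ratio of means was 1.99, with little spread in either group. UROS had a log2 fold change of 0.99 (SE 0.0572, adjusted p 2.6e-05 in limma).

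UROD (ENSG00000126088, chromosome 1, 45010950 to 45015575, plus strand), which trims the side chains of uroporphyrinogen to give coproporphyrinogen, was the most abundant member in both groups. Its level was 983, 1007 and 962 TPM against 447, 443 and 465 TPM. The spread within groups was small beside the difference, and the log2 fold change of 1.12 (SE 0.0502, adjusted p 1.6e-05 in limma) was the one with the lowest adjusted p of the 9. By mean TPM UROD ranked 123rd among tested genes with the MEN1 shRNA and 252nd in the controls. In the same libraries UROD TPM per ALAD TPM was 5.10, 5.28 and 5.28 against 2.90, 2.95 and 2.89, so the ratio of these cytosolic enzymes shifted without overlap.

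Opposite-strand genes overlap the rows of UROD (HECTD3), PPOX (B4GALT3) and ALAS2 (APEX2). Whether the authors' counting used strand is not stated. HECTD3 was at 38.1 to 53.5 TPM, B4GALT3 at 34.9 to 40.3 TPM and APEX2 at 27.7 to 32.2 TPM over the 6 libraries.

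The mitochondrial end of the pathway held both the highest and some of the lower fold changes. CPOX (ENSG00000080819, chromosome 3, 98579446 to 98593648, minus strand), which oxidises coproporphyrinogen between the mitochondrial membranes, was at 311, 365 and 355 TPM against 133, 161 and 118 TPM. Its control libraries varied more than those of any other member, with a coefficient of variation of 16.0%, and the groups were nonetheless far apart. CPOX had a log2 fold change of 1.33 (SE 0.118, adjusted p 9.9e-05 in limma), and of 1.22 to 1.45 with 1 library left out. An unnamed row on the same strand overlaps CPOX but reached at most 0.299 TPM.

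PPOX (ENSG00000143224, chromosome 1, 161166056 to 161178013, plus strand), which oxidises protoporphyrinogen at the inner membrane, was at 184, 158 and 160 TPM against 113, 119 and 126 TPM. Replicate 1 was the highest of its group. The means were 167 ± 14.2 and 119 ± 6.56 TPM, with a log2 fold change of 0.49 (SE 0.0764, adjusted p 0.00126 in limma) and a 95% interval of 0.31 to 0.66. PPOX did not pass the test against a log2 fold change of 0.5 (adjusted p 1 in limma's treat), and with an estimate below 0.5 it could not.

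FECH (ENSG00000066926, chromosome 18, 57544377 to 57586732, minus strand), which inserts ferrous iron into protoporphyrin, was at 200, 193 and 228 TPM against 122, 141 and 110 TPM. No library of one group reached the other, but the nearest, at 193 and 141 TPM, differed less than the group means of 207 ± 18.2 and 125 ± 15.6 TPM. limma gave a log2 fold change of 0.73 (SE 0.103, adjusted p 0.000727). FECH did not pass against a log2 fold change of 0.5 (adjusted p 0.147 in limma's treat).

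ABCB10 (ENSG00000135776, chromosome 1, 229516582 to 229558707, minus strand), a transporter of the inner mitochondrial membrane needed for heme synthesis in erythroid cells, was at 271, 296 and 275 TPM against 143, 146 and 153 TPM. Both groups were tight. limma gave a log2 fold change of 0.93 (SE 0.0584, adjusted p 3.3e-05). ABCB10 lay closest of the 9 to the mean profile of the members over the 6 libraries, at a root mean square distance of 0.0446 on the log2 scale. ALAD lay farthest, at 0.441.

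**Figure D2:**
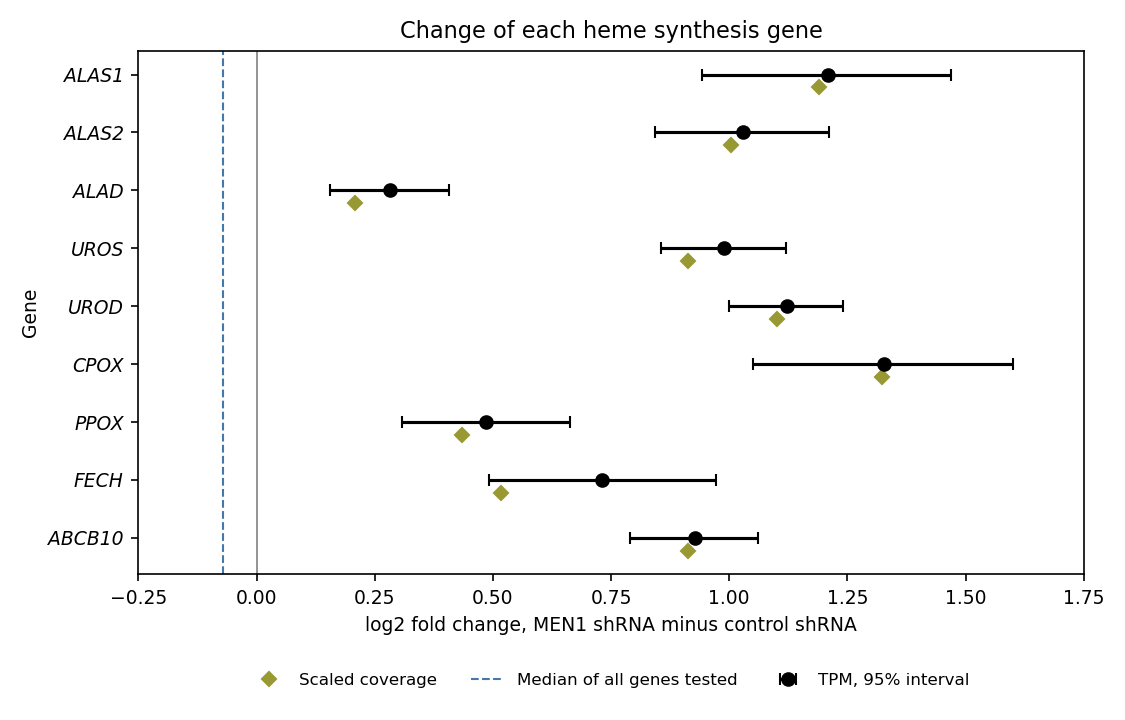
Log2 fold change of each heme synthesis gene, MEN1 shRNA minus control shRNA; circles are from TPM with 95% intervals from limma, diamonds are the same fit on gene-level coverage scaled to depth, and the dashed line is the median of all 14294 tested genes (-0.07). ALAD (0.28) and PPOX (0.49) lie lowest and CPOX (1.33) highest, and FECH is the member whose diamond (0.52) lies farthest from its circle (0.73).

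FECH also stood apart in how its reads were quantified. The tables give a mean coverage per base beside FPKM (fragments scaled for length and depth). In single-transcript genes their ratio was nearly constant within a library, whereas all 9 members lay below that constant. How both columns were derived is not stated in the labels. Expressed relative to single-transcript genes of the same library, this ratio was 0.238, 0.378 and 0.316 for FECH under MEN1sh2 against 0.354, 0.286 and 0.420 under Controlsh. The values of both groups were interleaved. The highest was 1.76 times the lowest, a larger spread than in 94.6% of tested genes, whose median was 1.09. In the other 8 members the highest was at most 1.07 times the lowest.

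The fit was repeated on coverage scaled to depth, an alternative chosen after the data were seen. FECH was then at 109, 167 and 165 in the MEN1 shRNA libraries and at 100.1, 94.3 and 107 in the controls, on a scale that sums to 1000000 per library. MEN1 shRNA replicate 1 now lay just above the highest control. limma then gave a log2 fold change of 0.52 (adjusted p 0.0427). The other 8 members moved by less, from 1.33 to 1.32 for CPOX and from 0.28 to 0.21 for ALAD (adjusted p 0.0172), and all 9 still passed.

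**Figure D3:**
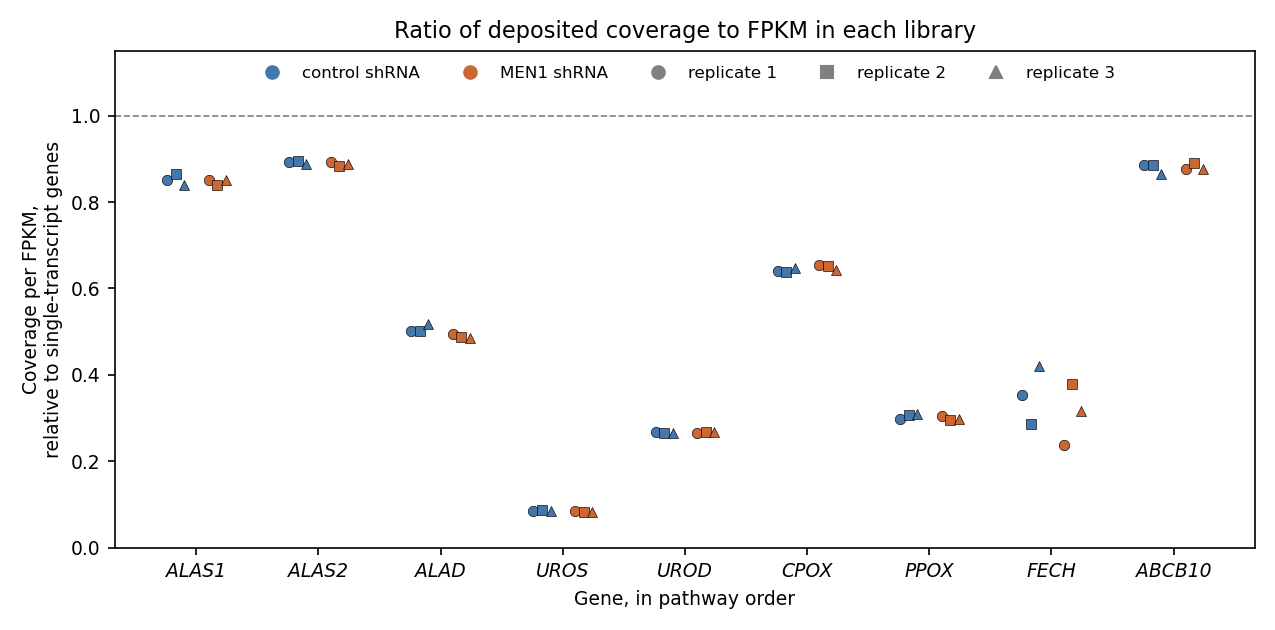
Ratio of deposited coverage to deposited FPKM in each library, relative to single-transcript genes of that library (dashed line at 1), for each heme synthesis gene in pathway order; colours give the group and shapes the replicate. FECH spreads from 0.238 to 0.42 with both groups interleaved, and the other genes stay near a level of their own.

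Levels were ordered alike at the top and bottom of the list in both groups. In the controls the order by mean TPM was UROD (452 ± 11.8), ALAS2 (383 ± 39.0), ALAD (155 ± 5.50), ABCB10 (147 ± 5.38), CPOX (137 ± 22.0), FECH (125 ± 15.6), PPOX (119 ± 6.56), UROS (117 ± 3.57) and ALAS1 (47.5 ± 1.86). From ALAD to UROS each gene overlapped its neighbour, so neighbours there do not differ beyond the spread between libraries, although the control libraries of ALAD and ABCB10 all lay above those of FECH, PPOX and UROS. With the MEN1 shRNA the middle of the list opened out: CPOX (344 ± 28.9) and ABCB10 (281 ± 13.3) separated upward, followed by UROS (233 ± 10.6), FECH (207 ± 18.2), ALAD (189 ± 5.59) and PPOX (167 ± 14.2). There UROS overlapped FECH, and ALAD overlapped PPOX. ALAD moved from the third place to the seventh although its own level was higher.

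The share of each gene in the summed TPM of the 9 members gives the same comparison free of library scaling. ALAD made up 5.92%, 5.67% and 5.57% of the sum under MEN1sh2 against 9.27%, 9.00% and 9.36% under Controlsh. PPOX made up 5.65%, 4.70% and 4.90% against 6.78%, 7.15% and 7.31%. Both shares were lower with no overlap between groups. UROD made up 30.2%, 29.9% and 29.4% against 26.9%, 26.6% and 27.1%, higher with no overlap. The shares of the other 6 genes overlapped between groups. These shares restate the fold changes, since a gene that rises less than the sum must fall in share. No test was made of shares within the list.

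As a whole the 9 genes took 0.325%, 0.337% and 0.327% of library TPM under MEN1sh2 against 0.166%, 0.167% and 0.172% under Controlsh, a ratio of 1.96. Globin transcripts (10 genes) made up 9.90% ± 0.630 and 5.51% ± 0.273 of TPM in the same libraries, a ratio of 1.80. Set against globin, the members had 32.4, 32.2 and 35.5 TPM per 1000 globin TPM under MEN1sh2 against 30.1, 31.9 and 29.8 under Controlsh. The groups did not overlap, but their nearest values, 32.2 and 31.9, were close together. For ALAS2 alone the values were 7.91, 7.61 and 8.15 against 7.01, 6.55 and 7.27 per 1000 globin TPM. Sums over the members were not tested.

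Erythroid markers were measured in the same fit. Of the 7 erythroid markers, 5 were called higher and 0 lower, beside 22.1% and 31.5% over all tested genes. The markers called higher include HBB and HBA1, which are counted again in the globin list. SLC4A1 (band 3) was at 402, 441 and 444 TPM against 117, 110 and 109 TPM. EPOR (log2 fold change 0.02) and GATA1 (0.06) did not pass the threshold, although GATA1 did with median-of-ratios scaling (adjusted p 0.0428 in limma). TFRC, the transferrin receptor, passed narrowly (0.29, adjusted p 0.0232 in limma) and missed it in 6 of 16 alternatives. The part of a shift in cell stage in the rise of the heme synthesis genes was not tested.

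Of 19 genes of mitochondrial supply and transport, all tested, 7 were called higher, 2 lower and 10 did not pass, with a median log2 fold change of 0.10. Over all tested genes 53.6% were called, 22.1% as higher and 31.5% as lower. The count called in either direction is near that background. Rises outnumbered falls on the list, whereas falls outnumbered rises over all tested genes. Neither count was tested or is read as a property of the list. SLC6A9, the glycine transporter of the plasma membrane, was at 53.4, 62.7 and 62.0 TPM against 20.2, 17.9 and 20.3 TPM (log2 fold change 1.56, adjusted p 2.6e-05 in limma). FAM210B, a mitochondrial protein linked to iron use in erythroid heme synthesis, was at 316, 344 and 342 TPM against 165, 165 and 166 TPM (1.01, adjusted p 2.4e-05). SLC25A39, a carrier that brings glutathione into mitochondria, was at 503, 559 and 502 TPM against 363, 314 and 346 TPM (0.61, adjusted p 0.000357). In all 3 genes the groups did not overlap, as in 61.8% of all tested genes in either direction. These genes were named for their low adjusted p, which all but fixes this.

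Both called falls on that list were subunits of succinyl-CoA synthetase, the enzyme that interconverts succinyl-CoA and succinate. SUCLG2, the GTP-specific subunit, was at 54.6, 43.8 and 45.1 TPM against 87.5, 87.9 and 72.6 TPM (log2 fold change -0.78, adjusted p 0.000761 in limma). SUCLA2, the ATP-specific subunit, was at 29.3, 30.5 and 27.6 TPM against 41.4, 44.3 and 40.6 TPM (-0.52, adjusted p 0.000643). The shared subunit SUCLG1, named after its values were seen, was at 112 to 115 TPM against 108 to 118 TPM and did not pass (-0.01, adjusted p 0.939); its sign changed with the scaling.

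SLC25A37, the mitoferrin that imports iron for heme in erythroid cells, was called higher and is named after its values were seen, because 1 library weighs on it. It was at 1204, 1274 and 1300 TPM against 631, 643 and 298 TPM, with control replicate 3 far below the other controls. limma gave a log2 fold change of 1.35 (SE 0.271, adjusted p 0.00413) and 0.98 (adjusted p 0.000204) without that library.

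Of 14 genes that export, use or break down heme, 13 were tested (FLVCR2 was too low), with 4 called higher, 5 lower and 4 not passing. These counts are near the shares over all tested genes (22.1% and 31.5%). TSPO2, an erythroid relative of the mitochondrial protein TSPO, was at 63.9, 56.1 and 60.7 TPM against 26.9, 24.6 and 22.3 TPM (log2 fold change 1.26, adjusted p 4.4e-05 in limma). TSPO itself, named after its values were seen, was lower (-0.55, adjusted p 0.000695). BLVRB, a biliverdin and flavin reductase abundant in red cells, was at 1750, 1857 and 1355 TPM against 1084, 932 and 1030 TPM (0.69, adjusted p 0.00213). FLVCR1, first described as a heme exporter, was at 11.5, 13.4 and 13.1 TPM against 7.03, 8.65 and 8.54 TPM (0.59, adjusted p 0.0031).

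The enzymes that turn heme b into the heme A of cytochrome c oxidase were both lower. COX10, which makes heme O, was at 10.0, 7.48 and 7.71 TPM against 21.5, 21.3 and 21.5 TPM (log2 fold change -1.26, adjusted p 0.000108 in limma). COX15, which makes heme A from it, was at 15.0, 11.7 and 13.6 TPM against 30.2, 33.1 and 31.3 TPM (-1.18, adjusted p 8.6e-05). The groups did not overlap in either gene, which their choice by low adjusted p all but fixes. The heme oxygenases HMOX1 (adjusted p 0.881) and HMOX2 (adjusted p 0.939), also named after their values were seen, did not pass in limma.

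Among 11 sensors of heme or iron and regulators of the ALAS genes, 9 were tested, with 4 called higher, 1 lower and 4 not passing. The shares over all tested genes were the same 22.1% and 31.5%. Those not passing were GATA1 (log2 fold change 0.06), KLF1 (-0.05), NFE2 (-0.23) and NRF1 (0.07), named after their values were seen. EIF2AK1, the heme-regulated kinase that slows translation when heme is short, was at 301, 310 and 325 TPM against 181, 185 and 177 TPM (log2 fold change 0.78, adjusted p 3.9e-05 in limma). TAL1, a transcription factor that works with GATA1 in erythroid cells, was at 145, 159 and 170 TPM against 94.1, 94.8 and 92.1 TPM (0.74, adjusted p 0.000115). ACO1, the aconitase that becomes iron regulatory protein 1 when it loses its iron-sulfur cluster, was at 10.7, 8.41 and 8.34 TPM against 20.4, 20.2 and 25.1 TPM (-1.18, adjusted p 0.000231). PPARGC1A and FOXO1, which drive ALAS1 in liver, reached at most 0.0186 and 0.600 TPM and were not tested.

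**Figure D4:**
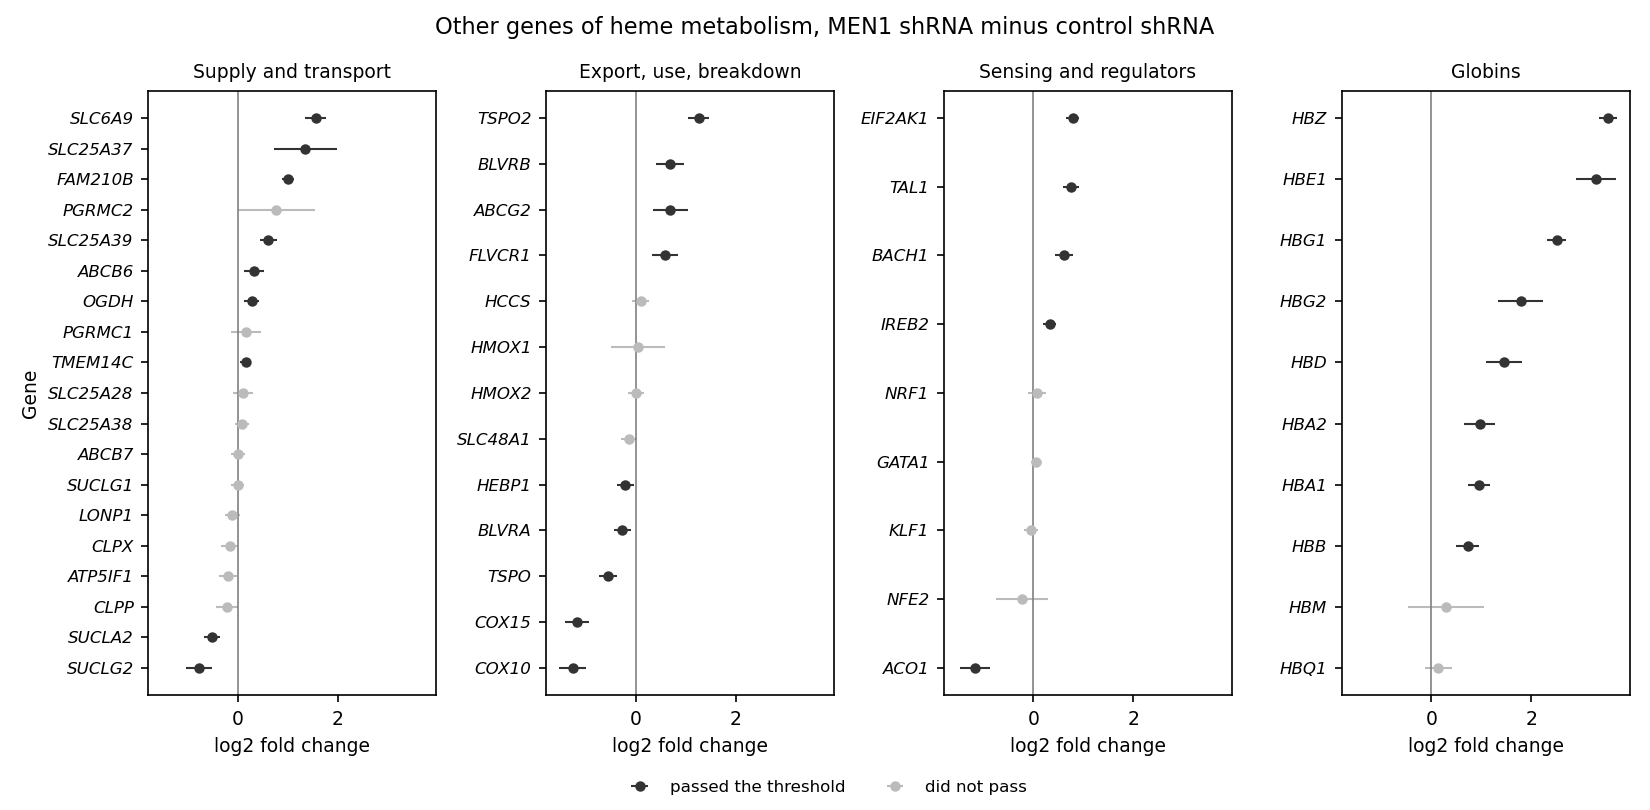
Log2 fold change with 95% interval (limma, MEN1 shRNA minus control shRNA) for each tested gene of 4 lists; dark points passed an adjusted p of 0.05 and grey points did not. SLC6A9 (1.56) and TSPO2 (1.26) lie at the top of their lists, COX10 (-1.26) and ACO1 (-1.18) at the bottom of theirs, and none of the 10 globins was called lower.

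The globin list, for which heme is made, had 8 of 10 genes called higher and 0 lower, with a median log2 fold change of 1.21. Over all tested genes 22.1% were called higher and 31.5% lower. HBZ (3.53), HBE1 (3.29) and HBG1 (2.51) had the lowest adjusted p-values, and HBM and HBQ1 did not pass. HBE1 was at 12.0, 14.7 and 18.2 TPM under MEN1sh2 against 0.794, 0.594 and 0.455 TPM under Controlsh. It therefore entered the test only through the MEN1 shRNA libraries. The call of HBE1 is among the 8 and its change enters the median, but neither is read as a result. The size of its change is uncertain, from 2.63 to 4.4 over 12 alternatives, so its order relative to HBZ is not read. HBG1 and HBG2 are near-identical copies, as are HBA1 and HBA2, so the division of reads within each pair is uncertain.

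The genes with the profile most like the mean of the 9 members over the 6 libraries were sought among 6225 named genes with a mean TPM of 20 or more, by root mean square distance of log2(TPM + 1) after subtracting the control mean. The nearest were AQP3, a water and glycerol channel (distance 0.0256), the ubiquitin ligase UBE3C (0.0344), the large RING protein RNF213 (0.0354), NCOA4, the receptor that delivers ferritin for degradation (0.0408), and YPEL5 (0.0452). AQP3 was at 114, 114 and 119 TPM against 61.6, 62.2 and 60.5 TPM. NCOA4 was at 381, 402 and 404 TPM against 214, 228 and 215 TPM. This likeness is a description over 6 libraries.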

How the data were processed

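RNA was measured in 3 MEN1 shRNA and 3 control shRNA libraries of HUDEP-2 cells, grouped by sample title. Per the submitters' processing notes, which give no roles, the tools were FastQC, Trimmomatic, STAR 2.7.1a, Picard 2.20.4 and StringTie 2.0.4, with the build hg38. Neither the annotation nor the use of strand in counting is given in the sources used here. The deposited TPM values sum to 1000000 per library, the deposited FPKM values are scaled per kilobase and per 1000000 fragments, and the deposited coverage is a mean per base that is not scaled for depth (per the file headers). The authors' tables hold 3 negative residues near 0, which were set to 0.

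Coordinates are those of the tables. Of 58261 gene identifiers also in GENCODE v29 (GRCh38), 99.9% overlap their position there. Depth was taken from the ratio of coverage to FPKM in single-transcript genes, equal within 0.1% in 94.9% to 95.4% of them, and from the most frequent product of coverage and length, 302 bases, read as a pair of 151-base reads. No count model was fitted, since counts are not recoverable for genes with several transcripts. Scaled coverage is coverage divided by that ratio, then brought to a sum of 1000000. Mean coverage of the members was 32.7 to 2632 per base.

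The test covered 14294 genes that reached a TPM of 1 in 3 or more libraries and was made on log2(TPM + 1), which understates changes of low genes, with limma 3.58.1 in R 4.3.3 (eBayes with trend, 2-sided, Benjamini-Hochberg, threshold 0.05). The limma p-values set the group difference against the spread between the 3 libraries of a group, moderated towards a trend over all tested genes. The fit was tested on simulated data. Other values used SciPy 1.17.1 and pandas 2.3.3 in Python 3.11.15. Alternatives changed the filter, pseudocount, unit, scaling, test, block and libraries. The members, gene lists and tests were chosen with earlier results of these data known. Named are all members, MEN1, up to 3 genes per list with the lowest adjusted p among those called, up to 3 called against the list's main direction, and the 5 genes nearest the members' mean profile. Promoter sequences are from RefSeq on GRCh38.p14. Marker genes that were planned but are not reported here were left out of the marker counts.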

Additional observations from a re-analysis of the deposited data

How the results depend on the processing

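The counts of calls, the members' fold changes and their median, and 3 derived values (the ALAS2 share, the members' share of the library and the members per 1000 globin TPM) were recomputed under the alternatives, 231 times in all: in 223 a tested value stayed on its side of the threshold in the same direction, an untested one within the replicate spread and a count within 1.5 times. None of these reversed. Some comparisons could not move. The filters, limma's treat and the replicate block leave each fold change as it was, so the members' median stayed at 0.99 by construction. The unnamed row added to CPOX reached at most 0.299 TPM and could hardly move any value. The tally of 223 is therefore no measure of robustness by itself. Shares within the list, level orders, other ratios and profile distances were not recomputed. When the change had to exceed 0.5 on the log2 scale (limma's treat), a stricter question by construction, 2126 genes and 6 of the 9 members passed. In that test 8 genes of the supply, use and regulator lists passed, against 23 called in the main fit. ALAD (0.28, adjusted p 1), PPOX (0.49, adjusted p 1) and FECH (0.73, adjusted p 0.147) did not pass. For ALAD and PPOX, whose estimates lie below 0.5, this was fixed by the main fit. The median of the members was 1.08 with median-of-ratios scaling, 1.06 without globin and mitochondrial genes and 0.91 with scaled coverage. Median-of-ratios scaling and the removal of globin and mitochondrial genes rescale all genes of a library by a common factor, so the members moved nearly alike. The median of all tested genes moved with them, from -0.07 to 0.01 and -0.01. The cause of the shift with scaled coverage was not tested. With 1 library left out, all 9 members passed each time (highest adjusted p 0.0158, for ALAD), the median was 0.95 to 1.02, and 6377 to 7317 genes passed. The difference in members per 1000 globin TPM, 2.80, then ran from 1.73 to 3.46.

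Replicate numbers are shared by the groups, but deviations from group means did not pair them (correlations 0.017, -0.027 and -0.012). With the replicate block, 7012 genes and all 9 members passed. Among genes outside the 9, BLVRA (log2 fold change -0.26, adjusted p 0.0196 in limma) lost its call in 8 of 16 alternatives. SLC25A39, SLC25A37, SUCLA2, SUCLG2, BLVRB, FLVCR1 and TSPO lost theirs in 1 of 16, limma's treat against 0.5. SLC6A9, FAM210B, TSPO2, COX10, COX15, EIF2AK1, TAL1 and ACO1 kept theirs in all 16. The intervals rest on 3 libraries a group. Depth was not limiting for the members, whose lowest value was 45.4 TPM.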

Other observations

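In a few listed genes, chosen after their values were seen, 1 library stood apart from its group, in TPM and in scaled coverage alike. NFE2, an erythroid transcription factor, was at 304, 167 and 312 TPM under MEN1sh2 against 303, 283 and 300 TPM under Controlsh, and its scaled coverage was 227, 125 and 232 against 226, 213 and 224. PGRMC2, a heme-binding membrane protein that carries heme to the nucleus, was at 134, 53.0 and 138 TPM under MEN1sh2 against 59.4, 54.1 and 59.8 TPM under Controlsh, and its scaled coverage was 203, 77.1 and 211 against 88.6, 92.1 and 94.2. Both low values are from MEN1 shRNA replicate 2. Neither gene passed the threshold in limma (adjusted p 0.412 for NFE2 and 0.0857 for PGRMC2). SLC25A37, described with the iron importers, had a scaled coverage of 267, 284 and 287 against 135, 140 and 53.8, so control replicate 3 was low on both scales.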
